A study of Oncorhynchus mykiss with 70 samples.

Results

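The acvr2b genes encode type IIB activin receptors, and 3 rainbow trout genes of this kind were followed across the body: acvr2ba1, acvr2ba2 and acvr2bb. They were chosen by name from the 49 activin pathway genes of a custom NanoString code set, in which a barcoded probe pair counts RNA molecules of each gene directly, without amplification. All 3 were measured in each of 70 RNA samples from 23 adult tissues. The fish were untreated adults of 2 to 3 years, drawn from clonal lines named Swanson and Oregon State University, and samples were not labelled by line. They were male except for the 3 Ovaries samples. Most tissues had 3 samples, with 4 for the Adductor and for the Pelvic Fin Skeletal Muscle and 2 for the Caudal Skeletal Muscle. The submitters call these biological replicates, and which fish gave which samples is not labelled. RNA was extracted by methods that varied with the tissue, so extraction and tissue cannot be told apart. Embryonic and younger stages named in the design were not analysed here.

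Type II receptors are the ligand-binding kinases of the activin branch of TGF-beta signalling. They bind activins, myostatin and Gdf11 at the cell surface, then recruit and phosphorylate a type I receptor, which in turn phosphorylates Smad2 and Smad3. In mammals the type IIB receptor is the main receptor through which myostatin limits skeletal muscle mass, and salmonids carry extra copies of these genes from a whole-genome duplication.

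The probes decide what each of the 3 counts can show, so their target stretches are given first. According to the authors' gene list, acvr2ba1 (LOC100301655, named actriib in RefSeq) lies on chromosome 15, acvr2ba2 (LOC110535274) on chromosome 11 and acvr2bb (LOC110531045) on chromosome 8. The same list says that the acvr2ba1 probe also binds acvr2ba2, whereas the acvr2ba2 probe is specific to acvr2ba2. The counts of acvr2ba1 and acvr2ba2 were therefore not separate observations. By that list the first holds signal of both genes, in proportions not measured here, and no count can be read as acvr2ba1 alone. Each probe has a target of 100 bases, printed 5′ to 3′ from the authors' probe list, whole for acvr2ba1 and acvr2bb and as its first 30 bases for acvr2ba2.
acvr2ba1: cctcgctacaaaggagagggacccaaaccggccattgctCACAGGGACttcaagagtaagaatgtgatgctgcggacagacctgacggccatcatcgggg
acvr2ba2: acccacccaacgcagagcgacaacatgcaa
acvr2bb: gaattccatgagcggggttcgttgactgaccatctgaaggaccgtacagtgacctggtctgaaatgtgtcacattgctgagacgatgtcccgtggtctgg
The capitals, bases 40 to 48 of the acvr2ba1 target, are the codons of the histidine-arginine-aspartate motif of the kinase catalytic loop, in the only forward reading frame of that target without a stop. The acvr2ba1 and acvr2ba2 targets share no run longer than 6 bases, and the acvr2bb target shares at most 7 bases in a row with acvr2ba1 and 5 with acvr2ba2. No genome sequence of these loci was used here, so how the acvr2ba1 probe matches acvr2ba2 was not tested.

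Signal differed widely between samples. Total counts ran from 52194 to 269554, and counts over the 49 pathway genes from 511 to 46159. The 8 negative control probes averaged 2.5 to 11.5 counts, and a gene was taken as above background in a sample when its count exceeded the mean of these controls by more than 2 SD, a threshold of 6.64 to 29.3 counts. Reference-scaled counts, used below, are counts divided by a sample's factor from the housekeeping genes actb, ef1a and tbp (their geometric mean, set to average 1 over samples on the log scale). That factor had a median of 0.349 in the 22 skeletal muscle samples and 1.72 in the other 48, so a muscle count is raised by the division and a background count is raised with it. Genes of well-known tissue served as a check on the labels. Myostatin mstna1 had tissue means of 185 to 1663 in the 7 skeletal muscles and of 3.93 to 148 elsewhere, and inhab1 was highest in Ovaries (2170) and Testes (1156). In whole tissues, fewer cells of a type and less RNA per cell cannot be told apart.

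The 3 genes were weakly counted. The acvr2ba1 probe gave 1 to 355 counts (median 29) and was above background in 46 of 70 samples. The acvr2ba2 probe gave 1 to 328 counts (median 32.5) and was above background in 55 of 70, and acvr2bb gave 1 to 154 counts (median 21) and was above background in 38 of 70. In skeletal muscle acvr2bb was above background in 3 of 22 samples, all of Extraocular Muscle, against 35 of 48 samples of other tissues. Detection is scored on unscaled counts, so it also follows how much signal a sample gave. The reference factor was 0.847 to 1.43 in the Extraocular Muscle samples and 0.0714 to 0.815 in the other muscle samples. The acvr2ba1 probe was above background in 13 of the 22 muscle samples and the acvr2ba2 probe in 16.

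Liver held the highest mean level of the acvr2ba pair. The acvr2ba2 probe gave 177, 255 and 322 counts in Liver, or 245 ± 52.6 reference-scaled counts (SD, n = 3), and the acvr2ba1 probe gave 86, 133 and 179 counts, or 127 ± 26.8 (SD, n = 3). All of these samples were above background, and the lowest acvr2ba2 value in Liver, 201, lay above the highest value of any other tissue, 195 in Pelvic Fin Skeletal Muscle replicate 4. For acvr2ba1 Liver was not separate. Its lowest value was 111, and samples reached 172 in Ovaries and 116 in Epaxial Skeletal Muscle. Folds against the other 22 tissues, here and below, are against their mean on the log scale and not against the arithmetic means printed. On that basis Liver was 7.58-fold higher for acvr2ba2 (log2 difference 2.92, adjusted p = 4.41e-10, edgeR's quasi-likelihood test) and 4.74-fold higher for acvr2ba1 (log2 difference 2.24, adjusted p = 1.71e-07). Both calls held in 12 of 12 alternative settings. The acvr2bb counts in Liver were 11, 37 and 47, of which the lowest was not above background, and acvr2bb was not called higher there.

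**Figure D1:**
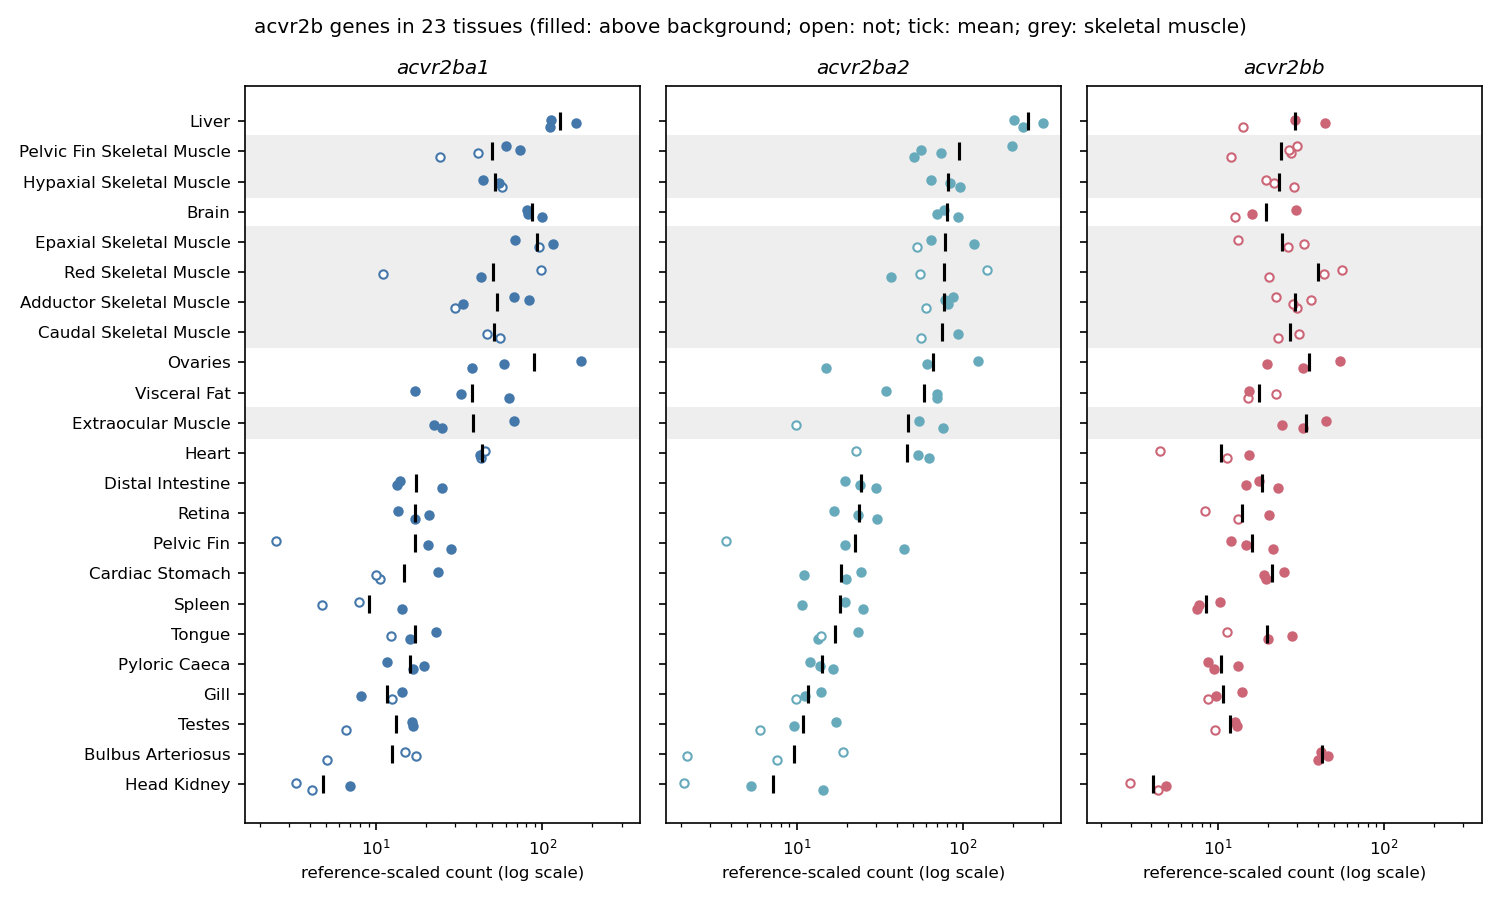
Reference-scaled counts (log scale) of acvr2ba1, acvr2ba2 and acvr2bb in 23 tissues, ordered by the mean of acvr2ba2. Points are samples, filled where the count exceeded background and open where it did not, ticks are means and grey bands mark skeletal muscles. The means of the acvr2ba pair peaked in Liver and that of acvr2bb in Bulbus Arteriosus, and the acvr2bb points of 6 of the 7 muscles are all open.

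All 3 genes varied among the 23 tissues (edgeR's quasi-likelihood F-test, F = 8.72 and adjusted p = 1.72e-10 for acvr2ba1, F = 8.27 and adjusted p = 4.40e-10 for acvr2ba2, F = 5.90 and adjusted p = 8.60e-08 for acvr2bb). So did every gene of the panel (49 of 49, 100%), so variation as such sets the acvr2b genes apart from nothing. Taken on log2(reference-scaled count + 10), the tissue means spanned 3.20 units for acvr2ba1, 3.93 for acvr2ba2 and 1.90 for acvr2bb. The added 10 narrows these spans, most where counts are low. Ordered by mean, neighbouring tissues overlapped in their samples in all 22 steps for acvr2ba1 and in 21 of 22 steps for acvr2ba2 and for acvr2bb. The exceptions were the step from Liver to Pelvic Fin Skeletal Muscle for acvr2ba2 and the step from Spleen to Head Kidney for acvr2bb. This was not particular to the acvr2b genes. Steps overlapped in 22 of 22 for acvr2aa1, acvr2ab1 and acvr2ab2 and in 21 of 22 for acvr2aa2, whose exception was also Spleen to Head Kidney. The share over all panel genes was not counted.

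To place the genes, the level in a tissue was compared with the average of the 22 others on the log scale. It was called higher or lower with an adjusted p under 0.05 and a log2 difference of at least 1 either way. Over all 1127 gene and tissue pairs of the panel, 20.3% were called higher and 16.7% lower. The acvr2ba1 probe was higher in 5 tissues (Liver, Epaxial Skeletal Muscle, Ovaries, Brain and Adductor Skeletal Muscle) and lower in 5 (Head Kidney, Spleen, Gill, Bulbus Arteriosus and Testes). The acvr2ba2 probe was higher in 6 (Liver, Brain and the Pelvic Fin, Hypaxial, Adductor and Epaxial Skeletal Muscles) and lower in 5 (Head Kidney, Bulbus Arteriosus, Testes, Gill and Pyloric Caeca). These shares are near those of the panel. acvr2bb was higher in 1 tissue, Bulbus Arteriosus, and lower in 2, Head Kidney and Spleen.

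Several of these calls rested on 1 sample. The acvr2ba1 call in Ovaries was lost without Ovaries replicate 3 (log2 difference 0.83), and that in Gill without Gill replicate 2 (−1.15). In Testes no acvr2ba1 call survived the loss of any 1 sample (−1.34 to −0.84), and in Bulbus Arteriosus it did not survive the loss of replicate 1 (−0.89) or 3 (−1.52). In Adductor Skeletal Muscle it fell away without replicate 3 (0.73) or 4 (0.89).

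For acvr2ba2 the call was lost in Pelvic Fin Skeletal Muscle without replicate 4 (0.82), in Epaxial Skeletal Muscle without replicate 2 (0.80), and in Hypaxial Skeletal Muscle and Brain without replicate 1 (1.11 in both). In Gill it was lost without replicate 1 (−1.55) or 2 (−1.60), in Testes without replicate 1 (−1.46), in Bulbus Arteriosus without replicate 2 (−1.52) and in Pyloric Caeca without any 1 sample (−1.50 to −1.27). The Liver calls of acvr2ba1 and acvr2ba2, the Head Kidney calls of the 3 genes and the 3 acvr2bb calls kept passing without each of their own samples. Other processing ended some of these. Over 12 alternative settings the acvr2bb call in Head Kidney was lost in 5. That in Spleen was lost in 5, among them negative control subtraction (log2 difference −0.14), and turned in 1.

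Brain was also called higher for the acvr2ba pair. The acvr2ba1 probe gave 121, 140 and 142 counts there, or 87.1 ± 10.5 reference-scaled counts (SD, n = 3), and the acvr2ba2 probe 104, 131 and 135 counts, or 79.9 ± 11.7 (SD, n = 3). The samples lay close together and all were above background. Brain was 3.19-fold above the log-scale mean of the other tissues for acvr2ba1 (adjusted p = 9.52e-05, edgeR) and 2.35-fold for acvr2ba2 (adjusted p = 0.0109, edgeR). The acvr2ba2 call was lost in 4 of 12 alternative settings, at log2 differences of 0.74 with pathway scaling, 0.66 with TMM, 0.51 with DESeq2's size factors and 1.66 with the negative controls subtracted. The acvr2ba1 call was lost in 1, at 0.89 with DESeq2's size factors. The acvr2bb counts in Brain were 18, 24 and 52, with the lowest not above background.

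At the other end stood Head Kidney, the blood-forming organ of teleost fish. The acvr2ba1 probe gave 11, 17 and 34 counts there, acvr2ba2 gave 7, 26 and 59, and acvr2bb gave 10, 18 and 24. Scaled by the reference genes these were 4.78 ± 1.93, 7.23 ± 6.32 and 4.08 ± 0.993 (SD, n = 3), the lowest tissue mean for each gene on this scale. This was not particular to the acvr2b genes. On the same scale acvr2aa1, acvr2aa2 and acvr2ab2 also had their lowest tissue mean in Head Kidney, and acvr2ab1 ranked 22 of 23 there. The share of panel genes called lower in Head Kidney was not counted. Only 1, 2 and 1 of the 3 samples were above background for acvr2ba1, acvr2ba2 and acvr2bb, so the folds below rest in part on counts at background. With pathway scaling Head Kidney had the lowest mean for none of the 3 genes, and after negative control subtraction for acvr2ba1 alone. Head Kidney was 6.36-fold lower than the log-scale mean of the other tissues for acvr2ba1 (adjusted p = 5.95e-05), 5.16-fold lower for acvr2ba2 (adjusted p = 0.000800) and 4.80-fold lower for acvr2bb (adjusted p = 2.31e-06, all by edgeR). Scaled by all pathway genes the log2 differences shrank to −1.09 for acvr2ba1 and −0.73 for acvr2bb, neither called, and to −1.09 for acvr2ba2, still called (adjusted p = 0.0442, edgeR). The acvr2ba2 call was lost with TMM (−0.95), the positive controls (−0.36) and negative control subtraction (−2.29). With the positive controls acvr2ba1 and acvr2bb were at −0.62 and −0.28, also not called. TMM ended the acvr2ba1 and acvr2bb calls as well, at −0.97 and −0.61. The acvr2bb call was further lost with negative control subtraction (−1.66) and DESeq2's size factors (−0.76).

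acvr2bb had another order of tissues. Its highest mean was in Bulbus Arteriosus, the elastic outflow chamber that receives blood from the ventricle, with 21, 31 and 48 counts, or 42.7 ± 2.85 reference-scaled counts (SD, n = 3). These samples were all above background and close to each other. Bulbus Arteriosus was 2.36-fold above the log-scale mean of the other tissues (log2 difference 1.24, adjusted p = 0.000288, edgeR). The call held in 10 of 12 alternative settings. It was lost with positive control scaling (0.78, adjusted p = 0.259, edgeR) and fell under the minimum difference in limma with 10 added (0.88). Red Skeletal Muscle had the next mean, 40.0 ± 18.1 (SD, n = 3), from 4 to 10 counts that were not above background. Ovaries followed, with 107, 113 and 154 counts (35.6 ± 17.7, SD, n = 3). Extraocular Muscle, which moves the eye, gave 35, 38 and 45 counts (34.1 ± 10.2, SD, n = 3). Its samples were above background for acvr2bb, whereas the other 6 muscles gave 3 to 16 counts, none above background. Every sample of those muscles also had a lower reference factor than the Extraocular Muscle samples. Whether this lower signal accounts for the difference in detection was not tested. After the mean of the negative controls was subtracted, acvr2bb averaged 28.1 in Extraocular Muscle and between 0 and 13.0 in the other muscles.

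Levels in the muscles are given as reference-scaled counts with the SD over samples. The acvr2ba1 means were 93.2 ± 24.2 in Epaxial, 53.5 ± 26.2 in Adductor, 52.1 ± 6.96 in Hypaxial, 51.0 ± 6.30 in Caudal, 50.5 ± 44.0 in Red and 49.8 ± 21.7 in Pelvic Fin Skeletal Muscle, and 38.2 ± 25.3 in Extraocular Muscle. The acvr2ba2 means were 93.8 ± 68.4 in Pelvic Fin, 81.1 ± 16.1 in Hypaxial, 77.8 ± 33.9 in Epaxial, 77.1 ± 55.2 in Red, 76.5 ± 11.8 in Adductor and 74.3 ± 26.6 in Caudal Skeletal Muscle, and 46.4 ± 33.4 in Extraocular Muscle. For acvr2ba1 the 3 Epaxial samples, the lowest at 68.1, lay above every Hypaxial, Caudal and Extraocular sample. Samples of Red, Adductor and Pelvic Fin Skeletal Muscle reached 98.0, 83.4 and 73.7, so these overlapped with Epaxial. The acvr2ba1 call in Epaxial Skeletal Muscle was lost in 4 of 12 alternative settings, such as pathway scaling (log2 difference 0.39), and turned in 1. Many muscle counts were not above background, such as the 6 and 12 counts of acvr2ba1 in Caudal Skeletal Muscle. The acvr2bb means of the remaining muscles, 29.3 in Adductor, 27.1 in Caudal, 24.3 in Epaxial, 24.1 in Pelvic Fin and 23.4 in Hypaxial Skeletal Muscle, came from counts at background.

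Fat and gut lay between these ends. Visceral Fat gave 37.6 ± 23.5 for acvr2ba1, 57.9 ± 20.3 for acvr2ba2 and 17.7 ± 4.04 for acvr2bb (SD, n = 3 throughout). Distal Intestine gave 17.4 ± 6.58, 24.4 ± 5.15 and 18.5 ± 4.15 for the 3 genes in the same order, and Pyloric Caeca 15.9 ± 4.01, 14.1 ± 2.32 and 10.5 ± 2.38. All samples of both gut tissues were above background for all 3 genes. Cardiac Stomach gave 14.7 ± 7.68, 18.3 ± 6.75 and 21.2 ± 3.30, and Tongue 17.0 ± 5.32, 16.9 ± 5.56 and 19.8 ± 8.32. Pelvic Fin gave 17.1 ± 13.2, 22.5 ± 20.4 and 16.2 ± 4.94, where replicate 3 was low for the acvr2ba pair, at 6 and 9 counts, and not for acvr2bb, at 29. Gill gave 11.6 ± 3.16, 11.7 ± 2.06 and 10.8 ± 2.77, and Spleen 9.0 ± 4.94, 18.3 ± 7.12 and 8.50 ± 1.53. In Spleen acvr2ba2 was above background in all 3 samples and acvr2ba1, whose probe is listed as also binding it, in 1.

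Within a sample the ratio of 2 counts does not depend on how samples are scaled, so ratios were used to ask whether the genes keep the same balance in every tissue. The acvr2ba2 to acvr2bb ratio did not stay the same. It was 6.85, 6.89 and 16.1 in the 3 Liver samples and 3.44, 5 and 5.5 in Heart, and acvr2ba2 exceeded acvr2bb in 55 of 70 samples. In Bulbus Arteriosus it was 0.0476, 0.188 and 0.452, so acvr2bb gave the larger count in every Bulbus Arteriosus sample and in no Liver or Heart sample. Some of these ratios rest on counts at background: acvr2bb gave 4, 18 and 1 counts in Heart, 1 of them above background, and acvr2ba2 gave 9, 1 and 14 in Bulbus Arteriosus, none above. Probes can differ in efficiency, so a ratio above 1 does not say that more RNA of that gene was present, and only the differences between tissues were tested.

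The ratio varied among tissues for acvr2ba2 over acvr2bb (limma F-test on log2 ratios with 10 added to each count, adjusted p = 6.21e-07) and for acvr2ba1 over acvr2bb (adjusted p = 2.13e-07). For acvr2ba1 over acvr2ba2 it did not pass (adjusted p = 0.138). Of all 1176 pairs of panel genes, 98.2% passed in this limma test, which called too many unchanged pairs on simulated data. The added constant weighs more in samples with few counts. edgeR's test of gene by tissue, in which each sample keeps its own level and nothing is added, gave adjusted p = 7.14e-07, 1.54e-06 and 0.366 for the same 3 pairs. In that edgeR test 1148 of the 1176 pairs passed, so a changing balance between genes is the rule in this panel.

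**Figure D2:**
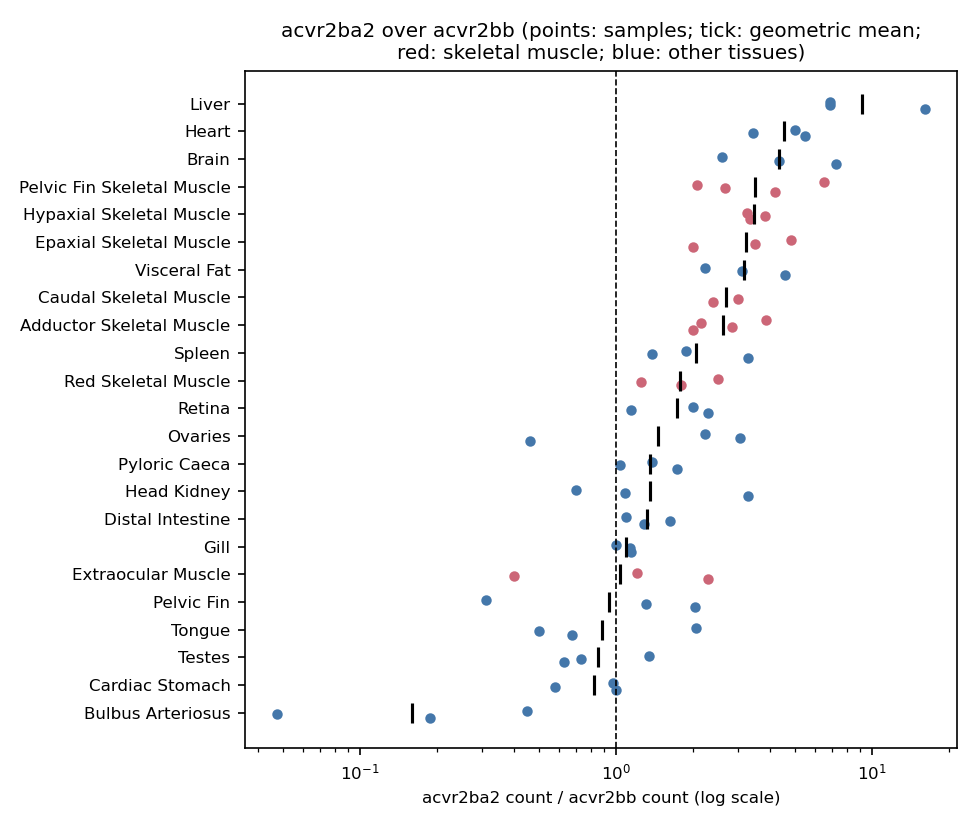
Ratio of acvr2ba2 to acvr2bb counts (log scale) by tissue, with points for samples, ticks for geometric means, red for skeletal muscles and blue for other tissues. The 3 Liver samples lie between 6.85 and 16.1 and the 3 Bulbus Arteriosus samples between 0.0476 and 0.452, on opposite sides of the dashed line at equal counts.

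The probe listed as binding both acvr2ba genes gave the smaller count in most samples. The acvr2ba1 count was below the acvr2ba2 count in 44 of 70 samples, above it in 23 and equal in 3, with a median ratio of 0.858. In Liver the ratio was 0.486, 0.522 and 0.556, and in Spleen it ran from 0.408 to 0.580. It was above 1 in all 3 Brain samples (1.05 to 1.16). A difference of this balance between tissues was not established, as its test above did not pass. It passed with a constant of 50 in place of 10 (limma adjusted p = 0.0227) and without Extraocular Muscle replicate 1 (adjusted p = 0.0233). In that sample the counts were 34 and 103, whereas Extraocular Muscle replicate 2 gave 32 and 14.

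**Figure D3:**
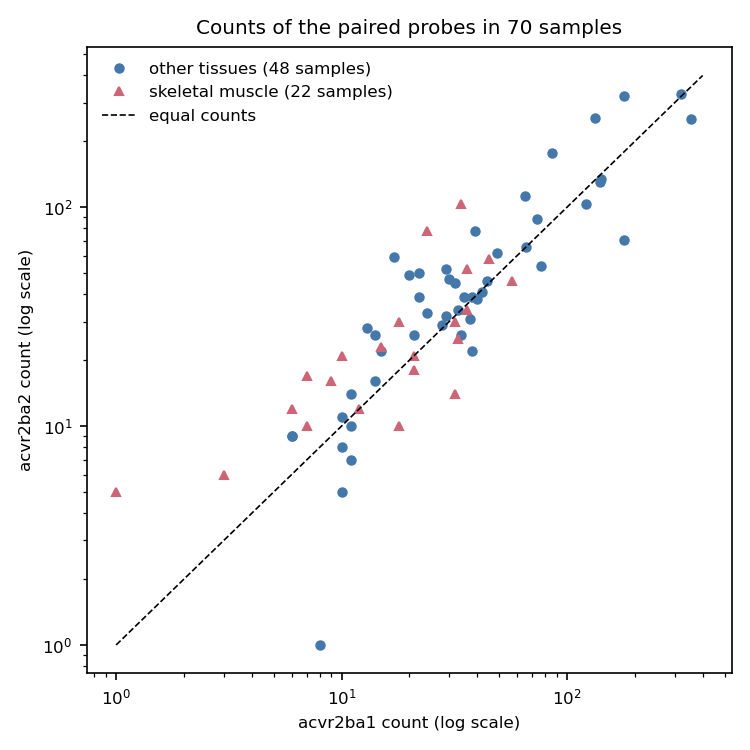
Counts of the acvr2ba1 and acvr2ba2 probes in 70 samples (both axes log scale), triangles for the 22 skeletal muscle samples, circles for the other 48 and a dashed line at equal counts. The points follow the line over the whole range, and 44 of 70 lie above it, where acvr2ba2 exceeds acvr2ba1.

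Pairs of related tissues were compared directly. Ovaries gave higher mean levels than Testes with all 3 probes, of which the acvr2ba1 and acvr2ba2 probes are not separate observations. The acvr2ba1 probe gave 37.9, 59.0 and 172 reference-scaled counts in Ovaries and 6.59, 16.5 and 16.6 in Testes, and acvr2bb gave 19.7, 32.6 and 54.6 against 9.58, 12.7 and 13.1. For these genes the groups did not overlap, while acvr2ba2 (15.04, 60.3 and 122 against 5.99, 9.64 and 17.2) overlapped in 1 sample of each. The share of panel genes without overlap was not counted. Of the 49 panel genes, 22.4% differed between the gonads. The log2 difference was 2.74 ± 0.60 for acvr2ba1 (SE, adjusted p = 0.000573), 2.56 ± 0.67 for acvr2ba2 (adjusted p = 0.00361) and 1.58 ± 0.42 for acvr2bb (adjusted p = 0.00394, all by edgeR).

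Ovaries replicate 3 carried much of this difference. Without it the log2 differences were 1.86 for acvr2ba1, still called, 1.76 for acvr2ba2 and 1.14 for acvr2bb, these latter with an edgeR adjusted p of 0.0528 each. Among the other type II receptor genes acvr2ab2 went the opposite way, at −1.48 ± 0.50 (SE, adjusted p = 0.0239, edgeR), and acvr2aa1, acvr2aa2 and acvr2ab1 were not called. With the negative controls subtracted none of the 3 acvr2b genes passed (adjusted p = 0.0568, 0.123 and 0.160, edgeR), and 1 of the 3 Testes samples was not above background for any of them.

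In the heart region the genes moved in opposite directions. Heart gave 42.0, 42.6 and 45.2 reference-scaled counts of acvr2ba1, against 5.04, 14.9 and 17.5 in Bulbus Arteriosus, and 22.6, 53.2 and 62.5 of acvr2ba2 against 2.18, 7.56 and 18.9. For acvr2bb it was Bulbus Arteriosus that was high, at 40.3, 41.9 and 45.8, against 4.52, 11.4 and 15.4 in Heart. No sample of one tissue reached into the range of the other for any of the 3 genes. How large a share of panel genes was separated in this way was not counted. The acvr2ba1 probe was higher in Heart by a log2 difference of 1.85 ± 0.64 (SE, adjusted p = 0.0425) and acvr2ba2 by 2.25 ± 0.72 (adjusted p = 0.0282), and acvr2bb was lower by −1.88 ± 0.47 (adjusted p = 0.00443, all by edgeR). Of the panel, 16.3% of genes differed between these tissues.

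These heart region counts were small. None of the Bulbus Arteriosus samples was above background for acvr2ba1 (6, 8 and 11 counts) or acvr2ba2 (1, 9 and 14), and 1 Heart sample was for acvr2bb (1, 4 and 18). Without the 8 low-signal samples of all tissues, among them Heart 3 and Bulbus Arteriosus 2, the directions stayed and the calls did not (adjusted p = 0.0995, 0.0995 and 0.0939, edgeR). The acvr2ba1 call was lost without 5 of the 6 samples in turn and the acvr2ba2 call without 4, whereas the acvr2bb call held each time. The tissues also lie in different sets of samples by the scale of the authors' normalized table, and set and tissue cannot be told apart.

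Brain and Retina, both neural tissue, differed in the acvr2ba pair. The acvr2ba1 probe gave 80.7, 81.5 and 99.2 reference-scaled counts in Brain against 13.6, 17.2 and 20.9 in Retina, and acvr2ba2 gave 70.01, 76.7 and 92.9 against 16.8, 23.3 and 30.4, with no overlap. The acvr2bb values (12.8, 16.2 and 29.5 against 8.41, 13.3 and 20.3) overlapped. Here too the share of panel genes without overlap was not counted. Log2 differences were 2.33 ± 0.60 for acvr2ba1 (SE, adjusted p = 0.00277), 1.76 ± 0.65 for acvr2ba2 (adjusted p = 0.0288) and 0.48 ± 0.42 for acvr2bb (adjusted p = 0.420, all by edgeR). The approximate 95% interval for acvr2bb was −0.35 to 1.31. Of the panel, 34.7% of genes differed, all of them higher in Brain. The acvr2ba2 call was lost without Brain replicate 1, Retina replicate 2 or Retina replicate 3, at adjusted p up to 0.104 (edgeR), and these tissues too lie in different sets.

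Spleen and Head Kidney, both blood-forming, and Distal Intestine and Pyloric Caeca, parts of the gut, gave no call for any acvr2b gene. Spleen was nominally above Head Kidney in acvr2ba1 (log2 difference 0.89 ± 0.59, SE), acvr2ba2 (1.32 ± 0.65) and acvr2bb (1.03 ± 0.43), with adjusted p of 0.634, 0.327 and 0.227 by edgeR. There, 2 of the 3 genes had an unadjusted p under 0.05 with edgeR and with DESeq2, and none passed after adjustment with edgeR, DESeq2 or limma. Of the panel, 2.04% of genes differed. Between Distal Intestine and Pyloric Caeca, where 6.12% of the panel differed, acvr2ba1 was at 0.13 ± 0.57, acvr2ba2 at 0.79 ± 0.64 and acvr2bb at 0.81 ± 0.42 (adjusted p = 0.904, 0.599 and 0.246, edgeR). None of these had an unadjusted p under 0.05 with edgeR or limma, and 1 did with DESeq2.

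The rest of the pathway was counted beside these genes in the same fits. Between the gonads 3 of 17 ligand genes differed (2 higher in Ovaries and 1 lower). So did 3 of 10 type I receptor genes and 1 of 12 Smad genes, inhibitory Smads included, all of these higher in Ovaries. Between Brain and Retina 7 of 10 type I receptors, 2 of 17 ligands and 4 of 12 Smads were higher in Brain, and with acvr2aa2 and acvr2ab2 at log2 differences of 1.55 and 1.88 so were 4 of the 7 type II receptors. The acvr2ba pair thus moved there with many other genes, at a panel median of 0.81. Between Heart and Bulbus Arteriosus 3 of 10 type I receptors were higher in Heart and none of the 17 ligands was called. The only type II receptors called were the 3 acvr2b genes, at a panel median of −0.11. The acvr2ba1 and acvr2ba2 calls there are not separate observations.

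**Figure D4:**
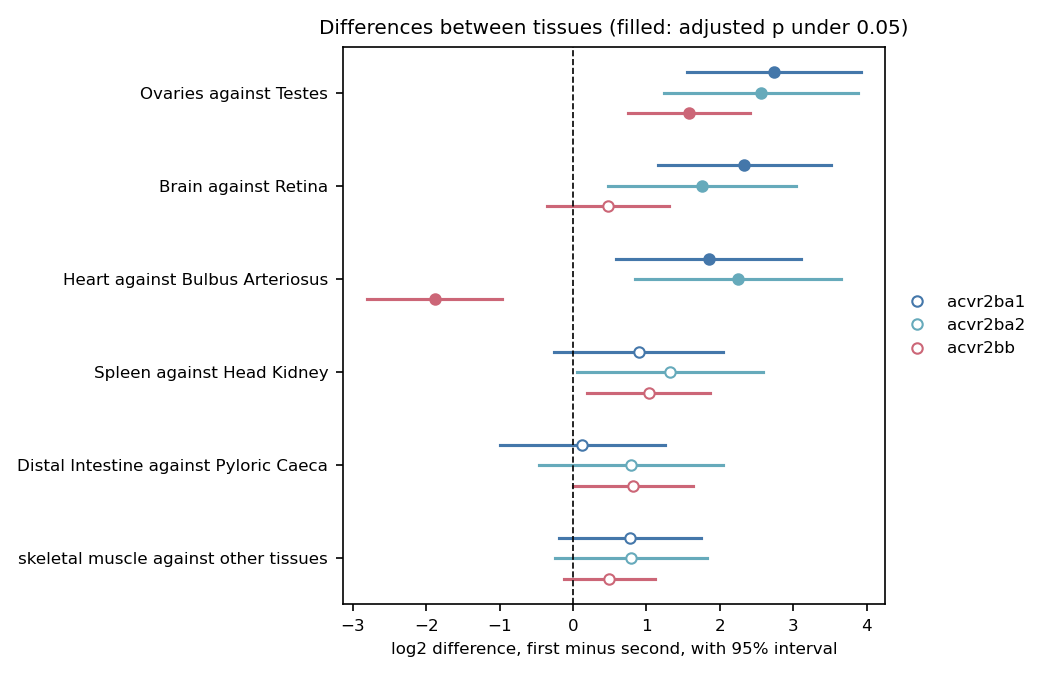
Log2 differences of reference-scaled counts between related tissues and between skeletal muscle and other tissues, first minus second, filled where the adjusted p was under 0.05. Bars are approximate 95% intervals, a normal range with the SE derived from edgeR's F statistic. In Heart against Bulbus Arteriosus the acvr2ba pair lies at 1.85 and 2.25 and acvr2bb at −1.88.

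Skeletal muscle is where type II receptors are known for binding myostatin, and the 7 muscles were compared with the 16 other tissues on summed counts, with the tissue as the unit. None of the 3 acvr2b genes was called. The acvr2ba1 tissue means averaged 55.5 ± 17.4 over the 7 muscles and 33.4 ± 35.9 over the 16 other tissues (SD over tissues). For acvr2ba2 these values were 75.3 ± 14.3 and 42.0 ± 58.3, and for acvr2bb they were 28.9 ± 6.17 and 18.2 ± 10.2. The log2 differences were 0.78 ± 0.49, 0.79 ± 0.53 and 0.49 ± 0.32 (SE, adjusted p = 0.182, 0.195 and 0.185, edgeR), and no gene had an unadjusted p under 0.05. In the panel 55.1% of genes were called higher in muscle, with a median log2 difference of 1.10 over all genes, and none lower. The other type II receptors were all among the genes called higher with reference scaling. Their log2 differences were 0.97 for acvr2aa1, 1.10 for acvr2aa2, 1.86 for acvr2ab1 and 1.51 for acvr2ab2. With pathway scaling the panel split was 4 genes higher and 10 lower.

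The muscle result depended on scaling and background. Scaled by all pathway genes, the log2 differences turned to −0.57, −0.61 and −1.02 for acvr2ba1, acvr2ba2 and acvr2bb, of which the last was called lower (adjusted p = 0.0147, edgeR), while the median over all genes moved to −0.36. With the negative controls subtracted, the acvr2bb difference turned to −0.65 (adjusted p = 0.443, edgeR). The cause of these turns was not tested. With limma on log2(reference-scaled count + 10), acvr2ba1 and acvr2ba2 were called higher (adjusted p = 0.0187 and 0.0119). DESeq2 with the reference factors called none of the 3.

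Among the 7 muscles themselves no acvr2b gene varied beyond the spread between samples (edgeR F-test, adjusted p = 0.609 for acvr2ba1, 0.856 for acvr2ba2 and 0.791 for acvr2bb, none with an unadjusted p under 0.05), where 20.4% of panel genes did. limma and DESeq2 with the reference factors also called none. For acvr2bb the answer changed once background was removed: with the negative controls subtracted the F-test passed (adjusted p = 0.00508, edgeR). Extraocular Muscle was then the muscle with the highest level.

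The balance between the acvr2b and acvr2a receptors was described by the share of acvr2ba1 and acvr2bb in the summed counts of these and the 4 acvr2a genes. acvr2ba2 was left out of the sum because the acvr2ba1 probe is listed as also binding it. Probes can differ in efficiency, and fewer acvr2b than acvr2a probes enter the sum. A small share thus does not say that less acvr2b RNA was present, and only differences between tissues were tested. In most tissues the acvr2b share was small, with tissue means between 4.71% in Gill and 13.6% in Tongue for 21 of the 23. Liver and Ovaries stood above them. Liver had shares of 26.1%, 29.5% and 46.7%, a mean of 34.1% ± 11.1 (SD, n = 3), and Ovaries 19.9%, 21.1% and 59.6%, a mean of 33.5% ± 22.6 (SD, n = 3).

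Every Liver and Ovaries share lay above the highest share of the remaining tissues, 16.5% in Extraocular Muscle replicate 2. The share varied among tissues (Kruskal-Wallis statistic with 100000 permutations, p = 1e-05, the smallest they can give, from a test without direction). Muscle and other tissues had tissue means of 9.10% ± 1.70 (SD, n = 7) and 12.3% ± 8.78 (SD, n = 16). These did not differ beyond their spread (exact permutation test over 245157 splits, two-sided p = 0.342). Background was not removed from these shares. With the negative controls subtracted, the muscle mean fell to 4.84% ± 2.57 (SD, n = 7) and the other to 10.7% ± 9.50 (SD, n = 16). The subtracted means did not pass either (exact permutation test over 245157 splits, two-sided p = 0.0948). In Liver the acvr2a genes were not higher: against the other 22 tissues the log2 differences were −0.84 for acvr2aa1, 0.14 for acvr2aa2, −0.97 for acvr2ab1 and −0.52 for acvr2ab2, while the acvr2ba pair rose.

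**Figure D5:**
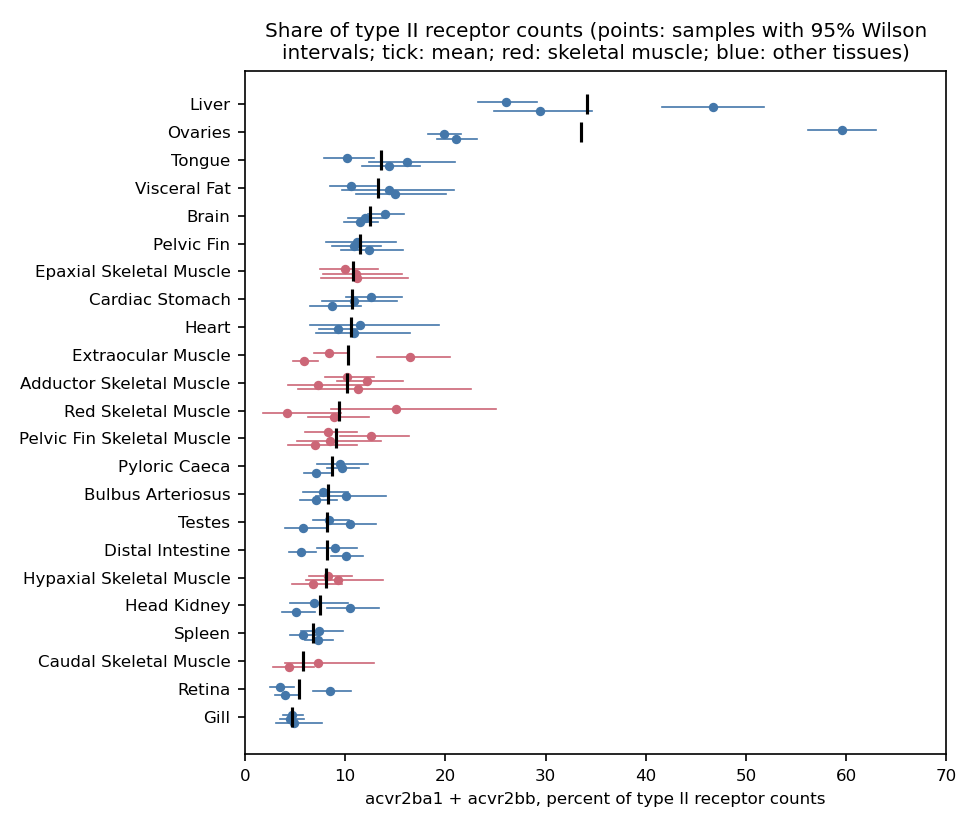
Share of acvr2ba1 and acvr2bb in type II receptor counts (percent) by tissue, with points for samples, bars for 95% Wilson intervals, which cover counting error only, ticks for means, red for skeletal muscles and blue for other tissues. The 3 Liver samples lie between 26.1% and 46.7% and the 3 Ovaries samples between 19.9% and 59.6%, above all other tissues.

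Over the 23 tissue means, the gene most like acvr2ba1 was acvr2ba2, with Pearson's r of 0.94 on log2 reference-scaled counts and 0.89 with pathway scaling, where the median r of acvr2ba1 with all 48 other genes was 0.47 and −0.04. This likeness is between probes that, by the authors' list, both bind acvr2ba2. Next came the type I receptor acvr1aa1 (r = 0.72) and acvr2aa2 (0.69) for acvr2ba1, which fell to 0.39 and 0.32 with pathway scaling. For acvr2ba2 they were inhbcb1 (0.78) and inhbab2 (0.73), genes of activin beta chains, which fell to 0.60 and 0.34, with Spearman's rho of 0.08 and 0.04. acvr2bb was most like inhbbb1, an activin beta B chain gene, at r = 0.67 with reference scaling and 0.72 with pathway scaling, against a median of 0.45 and 0.09. The type I receptor acvr1aa2 (0.62) and acvr2aa2 (0.60) followed, at 0.17 and 0.45 with pathway scaling. Its r with acvr2ba1 was 0.54 and with acvr2ba2 0.50. The tissue means share their reference factors and background, and no test was made.

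In the authors' deposited table of normalized tissue signal, Liver ranked first for acvr2ba1 and acvr2ba2, at 226 and 434, and Bulbus Arteriosus ranked first for acvr2bb, at 76.7. In the authors' deposited table Bulbus Arteriosus ranked 20 of 23 for acvr2ba1 and 21 of 23 for acvr2ba2. That table pools the replicates, so its values carry no error. Matched to the counts used here, its tissues lie on scales of 1.80, 1.75 and 0.734, so its ranks mix scales and are no separate evidence. Liver and Bulbus Arteriosus are both on 1.80. Red Skeletal Muscle, on 0.734, ranked 15 for acvr2bb.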

How the data were processed

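NanoString probes were counted in 70 samples of 23 tissues. The authors deposited raw counts per probe and sample, not normalized, per the file headers, and a table of normalized signal that the authors pooled per tissue. The authors' deposited gene and probe lists (other text, such as chromosomes and notes) gave identity. For the normalization and any genome build, the sources used here have no statement. Members and gene lists were chosen with earlier results of these data known.

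Under R 4.3.3, the quasi-likelihood test of edgeR 4.0.16 was fitted to the 49 pathway genes with 1 coefficient per tissue and offsets from actb, ef1a and tbp, and to tissue sums for muscle against other tissues. P-values of differences were two-sided, and those of F-tests over several tissues had no direction. They were adjusted by Benjamini-Hochberg over all 49 genes, 1127 gene and tissue pairs or 1176 gene pairs. limma 3.58.1, DESeq2 1.42.0, other scalings, background subtraction and left-out samples were alternatives. The share was tested in Python 3.11.15 with scipy 1.17.1, by exact enumeration for muscle against other tissues because a group held 7 values. Named genes were the 3 members, the acvr2a genes and the 3 genes most like each member. The fits were tested on simulated data. The limma ratio test with 10 added called too many unchanged pairs there, so edgeR's ratio test is printed beside it.

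No replicates of a tissue were copies of each other (chi-squared per degree of freedom at least 2.40). Matching the authors' deposited signal to the counts put 13 tissues (39 samples) on a scale of 1.80, 4 tissues (12) on 1.75 and 4 tissues (11) on 0.734, and left 2 mixed. Each of the 21 lies in 1 set, so a set could not be fitted as a block, and within-set values were added after seeing the data.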

Additional observations from a re-analysis of the deposited data

Results flagged for a closer look

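In Pelvic Fin Skeletal Muscle, 1 of the 2 tissues with 4 samples, replicate 4 held 195 reference-scaled counts of acvr2ba2 against 50.6, 55.9 and 73.3 in the other 3, a gap of 0.843 of the range. Scaled by all pathway genes the same sample was at 44.6 against 24.8 to 40.6. Of 14 sets of 4 values examined, this was the 1 with a sample so far from the rest, and chance flags about 5% of such sets. The acvr2ba2 call of this tissue was lost without it (log2 difference 0.82, edgeR adjusted p = 0.129). Pelvic Fin Skeletal Muscle is also 1 of the 2 tissues left mixed between the scales of the authors' normalized table. Which of its samples lie on which scale was not resolved, and whether replicate 4 differs for that reason was not tested.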

How the results depend on the processing

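All 3 genes varied among tissues, and acvr2ba1 and acvr2ba2 were called higher in Liver, under each scaling, tool and filter tried, apart from the fits within sets. Both ratios over acvr2bb varied among tissues in the 6 alternatives run for them, which included no other scaling of samples. Other results moved with the scaling. For skeletal muscle against other tissues, the log2 differences of acvr2ba1, acvr2ba2 and acvr2bb turned to −0.57, −0.61 and −1.02 with pathway scaling, −0.60, −0.62 and −0.96 with TMM, −1.33, −1.14 and −1.39 with the positive controls, and −0.54, −0.59 and −0.94 with DESeq2's own size factors. Under these 4 scalings acvr2bb was called lower in muscle, with adjusted p of 0.0147, 0.0428, 0.0174 (edgeR) and 0.0119 (DESeq2). acvr2bb also turned to −0.65 with the negative controls subtracted. limma raised acvr2ba1 and acvr2ba2 past the threshold, at 1.14 and 1.28 with 10 added and at 1.28 and 1.41 with 1 added.

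For Brain against Retina, acvr2ba2 was not called at 1.02 (pathway), 1.07 (TMM), 1.67 (positive controls), 2.04 (negative controls subtracted) and 0.77 (DESeq2's factors). There acvr2ba1 was not called at 2.22 (positive controls) and 1.34 (DESeq2's factors), and acvr2bb turned to −0.17, −0.16 and −0.51 with pathway, TMM and DESeq2's factors. For Heart against Bulbus Arteriosus, calls were lost for acvr2ba1, acvr2ba2 and acvr2bb at 2.03, 2.35 and −1.65 with the positive controls, 3.09, 3.16 and −2.79 with negative controls subtracted, and 2.12, 2.15 and −1.58 without the low-signal samples. acvr2ba1 also lost it at 1.37 with ef1a and tbp alone. For Ovaries against Testes, negative control subtraction ended the calls at 3.15, 3.08 and 2.00. The uncalled acvr2ba1 differences turned to −0.078 (pathway) and −0.15 (TMM) for Spleen against Head Kidney, and to −0.16, −0.16, −0.29 and −0.23 for Distal Intestine against Pyloric Caeca with pathway, TMM, positive control and DESeq2's factors. Variation of acvr2bb among muscles passed with the positive controls (adjusted p = 0.0205, edgeR), negative controls subtracted (0.00508) and DESeq2's factors (0.0452).

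The number of tissues called for acvr2ba1 was 3 higher and 0 lower with pathway scaling, 3 and 1 with TMM or the positive controls, 3 and 2 with negative controls subtracted, and 2 and 2 with DESeq2's factors. It was 2 lower with limma and 10 added, and 3 lower without low-signal samples. For acvr2ba2 it was 2 and 3 with pathway scaling or DESeq2's factors, 2 and 1 with TMM, 3 and 1 with the positive controls, and 2 and 0 with negative controls subtracted. For acvr2bb it was 3 and 0 with pathway or TMM, 4 and 0 with negative controls subtracted, 4 and 1 with DESeq2's factors, 0 and 1 with limma and 10 added. It was 2 higher with limma and 1 added, 1 lower with the positive controls and 4 lower with ef1a and tbp.

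Single tissue differences that turned were acvr2ba2 in Epaxial (−0.11 pathway, −0.066 TMM, −0.86 positive controls), Hypaxial (−0.11 pathway, −0.18 positive controls, −0.017 DESeq2's factors), Adductor (−0.43 positive controls) and Pelvic Fin Skeletal Muscle (−0.0058 positive controls, −0.025 DESeq2's factors), and in Pyloric Caeca (0.050 pathway, 0.27 positive controls, 0.086 DESeq2's factors). With the positive controls acvr2ba1 turned in Adductor (−0.52) and Epaxial Skeletal Muscle (−0.35) and in Spleen (0.17), and acvr2bb in Spleen (0.66). These scalings differ in the factor given to muscle samples, and the cause of each change was not tested.

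Leaving out 1 sample at a time gave ranges of 1.42 to 2.15 (acvr2ba1) and 1.86 to 3.10 (acvr2ba2) for Heart against Bulbus Arteriosus, 1.57 to 1.99 (acvr2ba2) for Brain against Retina, and 1.76 to 3.05 (acvr2ba2) and 1.14 to 1.87 (acvr2bb) for Ovaries against Testes. acvr2ba1 ran from −0.23 to 0.30 for Distal Intestine against Pyloric Caeca, the number of tissues higher in acvr2bb from 1 to 2, and the adjusted p of the acvr2ba1 to acvr2ba2 ratio from 0.0233 to 0.260 (limma). With 50 in place of 10 added, that p was 0.0227.

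Within sets of tissues on 1 scale of the authors' table, added after seeing the data, the adjusted p for variation among tissues was 2.84e-08, 2.07e-07 and 3.83e-06 in the largest set (edgeR). It was 0.982, 0.950 and 0.745 in the set of 4 tissues without muscle and 0.134, 0.0607 and 0.0986 in the set of 4 with muscle. Of the 49 panel genes 48, 23 and 35 passed in these sets, in the same order.

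Replicate numbers gave little sign of pairing between samples (median correlation 0.03 over 738 same-numbered pairs, −0.01 over others). The correlation exceeded 0.1 in 290 of the 738 and in 534 of 1604 others. With so few samples per tissue, this check cannot exclude that same-numbered samples came from the same fish. With the replicate number as a block, acvr2ba1 and acvr2ba2 in Adductor Skeletal Muscle (0.85 and 0.96) and acvr2ba2 in Pelvic Fin Skeletal Muscle (1.05) were no longer called, and no comparison between tissues changed its call for the 3 genes.

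Panel counts also moved. For Heart against Bulbus Arteriosus the count changed with the setting (8 genes called, against 19 with pathway scaling, 20 with TMM, 21 with DESeq2's factors, 13 with ef1a and tbp, 5 with negative controls subtracted, 1 without low-signal samples and 0 with the positive controls). For muscle against other tissues 27, all higher, became 14 with pathway scaling (4 higher and 10 lower) and 11 with TMM, for Brain against Retina 17 became 2 (positive controls), and for Ovaries against Testes 11 became 2 (negative controls subtracted). Spleen against Head Kidney moved between 0 and 2, and Distal Intestine against Pyloric Caeca between 3 and 8. A filter at a mean count of 20 and DESeq2 with reference factors changed no call of the 3 genes. A block by set was not run because each tissue that could be assigned lies in 1 set, and 2 tissues were left mixed. Counts near background limit acvr2bb in muscle and the acvr2ba pair in Bulbus Arteriosus.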
